A study of Homo sapiens with 4 samples.

Results

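The regions described here were the stretches of accessible chromatin around 10 genes of the liver lineage in human pancreatic progenitors: ALB, AFP, TTR, TF, APOA1, APOA2, APOB, FGB, SERPINA1 and CEBPA. The ATAC-seq peaks of 4 lists were merged wherever they shared at least 1 bp, and a merged region was taken when it overlapped the gene's body in GENCODE release 44 or the 20 kb on either side. This gave 75 of the 164301 merged regions of the genome. Of these, 1 lay in the windows of both ALB and AFP, which are neighbours on chromosome 4.

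The cells were pancreatic progenitors differentiated from MEL1, an established human embryonic stem cell line that the study's methods give as MEL1 INS GFP/W, with GFP at the insulin locus, and all cultures shared the basal EF6 medium, which is DMEM with B27, EGF, bFGF and the TGFβ receptor inhibitor 616452. One group received DMSO, the solvent, and the other 1 μM I-BET151 for 7 days, with 2 libraries of 50000 cells each. ATAC-seq marks open DNA by where the Tn5 transposase inserts sequencing adapters. Nothing in the labels says whether the 2 libraries of a group came from separate cultures, so the tests measure the spread between these libraries from 1 cell line, and in bulk ATAC-seq a larger share of cells open at a site and a wider opening in each cell cannot be told apart.

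Liver and pancreas arise from neighbouring parts of the foregut endoderm and share transcription factors such as the FOXA, GATA, HNF1 and ONECUT families. The 10 genes are typical of hepatocytes: most encode proteins secreted into the plasma, and CEBPA encodes C/EBPα, a transcription factor that activates many of them. I-BET151 blocks the bromodomains of BET proteins, which bind acetylated histones. The comparison asks how open the genes of a sister lineage were in these progenitors, and whether that differed with the inhibitor.

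Sequences of 6 regions carry the contrasts described below, and each is the 201 bases around the summit on the plus strand of hg38. Capitals mark the letters of binding motifs searched on both strands, namely TTGCNNAA for C/EBP, AGATAA for GATA and TTAATNATT for HNF1. The first was called in the I-BET151 lists alone, inside ALB (chr4:73407734-73407934, intron 3, GATA letters). The second was called in all 4 lists inside the AFP gene record, upstream of its canonical transcript (chr4:73432753-73432953, C/EBP and GATA letters). The third is the summit of a merged region of 1827 bp in front of FGB (chr4:154560248-154560448, C/EBP and GATA letters). That region was also called in all 4 lists but ranked lower with I-BET151. The rank is that of the whole region, not of the printed bases. The fourth, at the start of FGA, was called in all 4 lists (chr4:154590757-154590957, C/EBP and HNF1 letters). The remaining regions were called in both DMSO lists alone, near TF (chr3:133731563-133731763) and near CEBPA (chr19:33311127-33311327), and hold none of the letters searched.
ALB +3.5 kb: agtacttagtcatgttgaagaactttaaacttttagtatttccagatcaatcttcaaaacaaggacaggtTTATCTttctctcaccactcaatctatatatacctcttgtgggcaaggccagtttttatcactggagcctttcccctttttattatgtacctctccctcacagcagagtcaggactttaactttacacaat
AFP −3.4 kb: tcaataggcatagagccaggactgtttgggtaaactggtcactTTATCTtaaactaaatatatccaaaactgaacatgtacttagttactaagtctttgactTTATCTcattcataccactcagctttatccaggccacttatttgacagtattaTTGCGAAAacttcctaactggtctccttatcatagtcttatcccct
FGB −2.7 kb: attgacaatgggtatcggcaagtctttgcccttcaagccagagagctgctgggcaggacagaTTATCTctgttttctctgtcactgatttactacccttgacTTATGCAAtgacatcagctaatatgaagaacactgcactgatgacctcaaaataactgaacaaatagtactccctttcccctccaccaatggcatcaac
FGB +27.8 kb: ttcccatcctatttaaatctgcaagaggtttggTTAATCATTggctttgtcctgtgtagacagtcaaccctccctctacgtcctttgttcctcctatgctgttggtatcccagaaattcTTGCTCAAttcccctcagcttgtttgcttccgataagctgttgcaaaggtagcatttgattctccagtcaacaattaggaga
TF −14.7 kb: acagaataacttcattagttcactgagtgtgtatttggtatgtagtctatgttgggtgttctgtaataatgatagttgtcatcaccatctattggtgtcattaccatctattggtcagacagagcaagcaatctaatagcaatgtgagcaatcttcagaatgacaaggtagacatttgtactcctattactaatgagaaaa
CEBPA −8.7 kb: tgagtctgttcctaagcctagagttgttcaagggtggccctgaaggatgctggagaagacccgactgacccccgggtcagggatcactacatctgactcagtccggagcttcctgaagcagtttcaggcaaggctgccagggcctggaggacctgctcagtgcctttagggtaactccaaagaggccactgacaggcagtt

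The peaks were called by the authors in each library separately. The lists held 82568 (DMSO 1), 38295 (DMSO 2), 84995 (I-BET151 1) and 111324 peaks (I-BET151 2). The background values of the lists, with each list's shortest peak taken as the length given to a read, put the DMSO libraries at 38.7 and 36.6 M reads. The I-BET151 libraries came to 12.5 and 16.0 M reads. For each peak the lists give the fold enrichment, which is the number of reads over the summit relative to the local background, and its p-value. Together these fixed the number of reads at the summit in 100% of the peaks. The smallest number of reads that made a peak was 10 and 11 in the DMSO lists and 5 and 6 in the I-BET151 lists, so a region without a call is not a region without reads. The DMSO 2 list was by far the shortest, and the I-BET151 2 list was the longest, which bears on every count of calls below. As a check of the cell type, a region at the transcription start was called in all 4 lists for 7 of 10 pancreatic progenitor genes and 2 of 5 pluripotency genes, against 53.5% of all protein-coding genes, whereas PDX1 had one only with I-BET151 and PTF1A had none in any list. By the locus score described below, the progenitor genes lay under the pluripotency genes in every library.

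The shares of liver gene regions that were gained or lost with I-BET151 lay near those of the whole genome when all deposited peaks were used, and the gained share lay below it with stricter lists. Of the 75 regions, 12 (16.0%) were gained, meaning that each I-BET151 list and neither DMSO list called them, against 17.0% of all regions. The reverse pattern, called lost, held for 2 regions (2.67%) against 2.37% of all regions. A further 17 regions (22.7%) were called in all 4 lists, against 15.6% of all regions, and the remaining 44 (58.7%) had other combinations. With peaks of a −log10 p of at least 10 alone, 4 of 46 regions (8.70%) were gained, against 23.3% of all regions, and with equal numbers of peaks in every list 1 of 37 (2.70%), against 9.19%. The DMSO 1 and DMSO 2 lists called 37 and 23 of the liver gene regions and the I-BET151 1 and I-BET151 2 lists 42 and 57. A single list accounted for 32 regions: 7 were called in DMSO 1 alone, 8 in I-BET151 1 alone, 17 in I-BET151 2 alone and none in DMSO 2 alone. Their fold enrichment ran from 2.47 to 4.00 in DMSO 1, from 3.10 to 5.88 in I-BET151 1 and from 2.73 to 8.94 in I-BET151 2, the last at APOA1 −15.0 kb.

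**Figure D1:**
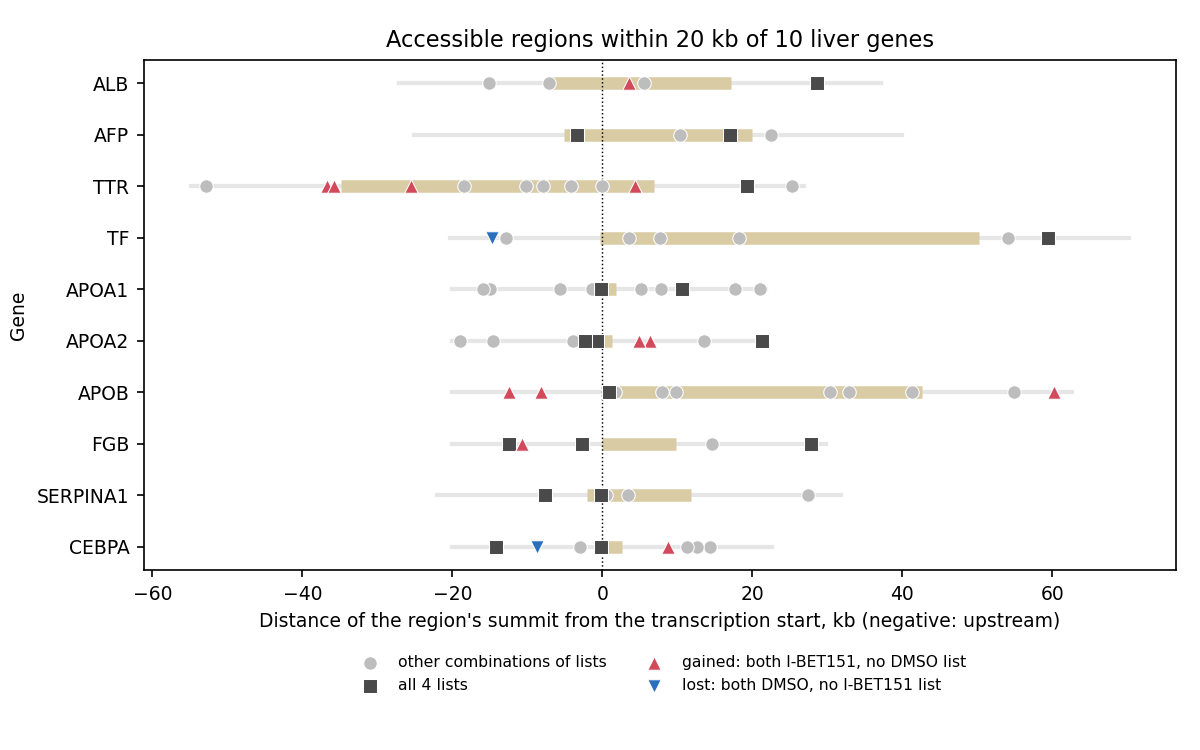
Map of the 75 regions around the 10 liver genes, with each region placed by the distance of its summit from the gene's transcription start in kb (negative values are upstream). Tan bars are gene bodies, grey lines the 20 kb on either side, and marker shapes show in which lists a region was called. The 12 gained regions lie at 6 of the genes, the 2 lost ones upstream of TF and CEBPA, and the 17 regions called in all 4 lists at every gene. The region shared by the windows of ALB and AFP is drawn in both rows.

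The transcription starts differed between the genes. A region within 1 kb of the start was called in all 4 lists at 5 of 10 genes (APOA1, APOA2, APOB, SERPINA1 and CEBPA), against 53.5% of 20033 protein-coding genes. ALB, AFP, TF and FGB had none in any list. TTR had 1 in DMSO 1 alone, with a fold enrichment of 3.92 and 22 reads at −29 bp. Thus none of these 10 starts was called in both I-BET151 lists and missed in both DMSO lists. None of the 12 gained regions lay within 1 kb of the start of any protein-coding gene, against 5.89% of all gained regions, whereas 10 of the 17 regions called in all 4 lists did, 5 at the gene's own start and 5 at the starts of neighbours, among them SRPRB, TOMM40L, PLRG1 and FGA, against 37.2% of all such regions.

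Openness of a whole locus was summarised by a locus score, the mean over its regions of the percentile that the region's fold enrichment took in its list, and 0 where a list lacked the region. A region entered a locus through a call in any list, so regions called in 1 group alone lower the score of the other. Averaged over the 10 genes, the score was 33.4 in DMSO 1, 20.8 in DMSO 2, 31.3 in I-BET151 1 and 42.9 in I-BET151 2. The groups overlapped, with 27.1 ± 8.96 (SD, n = 2) for DMSO and 37.1 ± 8.20 (SD, n = 2) for I-BET151. The difference of 9.95 gave p = 0.667 (exact permutation test, two-sided), where 2 libraries against 2 cannot give a p below 0.33. Over all 18871 genes with a region the mean difference was 11.0 and the median 10.6, and 82.9% of genes scored higher with I-BET151. Over the liver genes the median was 12.7, and 8 of 10 scored higher. The liver genes thus lay near the general shift, below it by the mean and above it by the median. Both I-BET151 scores lay above both DMSO scores at 6 of the 10 genes, against 51.1% of all genes, and below them at none, against 2.97%. When every list was cut to the same number of peaks the difference over the liver genes turned to −5.29, and that over all genes became 0.61.

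**Figure D2:**
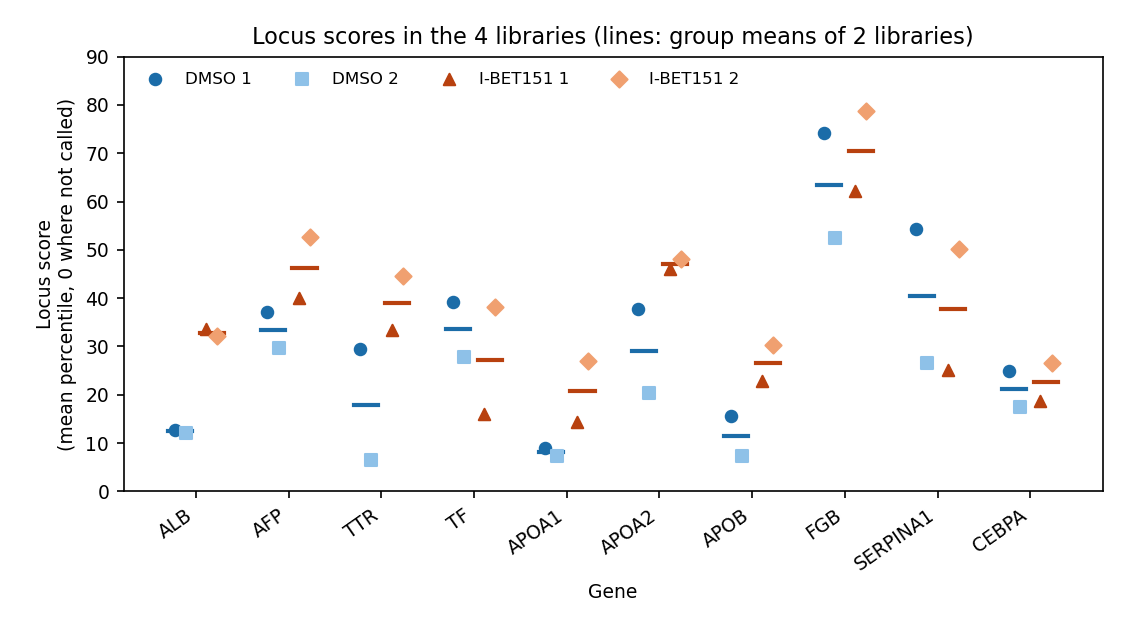
Locus scores of the 10 liver genes in each library (points) with the mean of the 2 libraries of a group (lines); the score is the mean percentile of fold enrichment over a gene's regions, on a scale from 0 to 100. ALB, AFP, TTR, APOA1, APOA2 and APOB have both I-BET151 points above both DMSO points, and the groups overlap at TF, FGB, SERPINA1 and CEBPA.

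Among the carrier proteins, ALB, which encodes serum albumin, had 5 regions and the closest scores within groups. They were 12.8 and 12.1 in the DMSO libraries and 33.6 and 32.1 in the I-BET151 libraries, a difference of 20.4 with no overlap. A gained region in intron 3 (chr4:73407387-73408046) had a fold enrichment of 5.20 with 9 reads in I-BET151 1 and 7.10 with 18 reads in I-BET151 2. The only ALB region called with DMSO was the one it shares with AFP. Its groups overlapped on the scale used below for regions called in all 4 lists. The other 3 were called in 1 I-BET151 list each. The DMSO scores of ALB thus come from the shared region alone, with 0 for the others. The gap between the groups therefore follows largely from which regions were called.

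AFP, which encodes the fetal counterpart of albumin, scored 37.1, 29.6, 40.1 and 52.6 in DMSO 1, DMSO 2, I-BET151 1 and I-BET151 2, and its 4 regions included none that was gained or lost. The region at −3.4 kb, upstream of the canonical transcript, had a fold enrichment of 4.32 and 4.50 with DMSO and 7.72 and 7.52 with I-BET151. Fold enrichments ran higher in the I-BET151 lists as a whole (medians of 5.56 and 6.03 over their peaks, against 3.88 and 4.08 with DMSO), so regions called in all 4 lists were compared by their percentile among the 25627 such regions of the genome. On that scale the AFP −3.4 kb region stood at 29.1 and 46.5 with DMSO and 42.5 and 21.1 with I-BET151, and the region in intron 12 (+17.1 kb) at 58.4 and 43.4 against 63.9 and 44.4. The groups overlapped at both.

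TTR, which encodes the thyroxine carrier transthyretin, had the most gained regions, 4 of its 12. They lay at −36.7, −35.8, −25.5 and +4.4 kb from the start of the canonical transcript, and the third lies inside the longer gene record, which begins upstream. The one at +4.4 kb, in intron 3 (chr18:31595987-31596476), had the largest difference in percentile of the 75 regions when a missing call is set to 0, as it was in both DMSO lists here, with a fold enrichment of 7.35 on 14 reads in I-BET151 1 and 8.30 on 26 reads in I-BET151 2. The other 3 had a fold enrichment of 4.13, 6.54 and 4.13 in I-BET151 1 and of 5.56, 6.21 and 6.11 in I-BET151 2. The locus scored 29.4 and 6.58 with DMSO and 33.5 and 44.7 with I-BET151, so the groups did not overlap, but DMSO 1 lay within 4.1 of I-BET151 1. A region at +19.3 kb was called in all 4 lists, at percentiles of 78.3 and 70.4 with DMSO and 75.3 and 68.4 with I-BET151, and its groups overlapped.

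TF, which encodes the iron carrier transferrin, went the other way in 1 region and did not separate as a locus. Its scores were 39.3 and 27.7 with DMSO and 16.1 and 38.2 with I-BET151. The lost region at −14.7 kb had a fold enrichment of 3.46 in DMSO 1 and 3.57 in DMSO 2, with 14 reads in each. The strongest region of the window, at +59.4 kb, lies at the start of SRPRB, a subunit of the signal recognition particle receptor. Its fold enrichment was 6.38 and 6.64 with DMSO and 15.5 and 16.9 with I-BET151, and its percentile 73.1 and 83.2 against 97.4 and 96.4. Both I-BET151 values were higher, but the difference in normal scores of the ranks, 1.08 ± 0.38 (SE), did not pass the test (limma, Benjamini-Hochberg adjusted p = 0.0982).

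**Figure D3:**
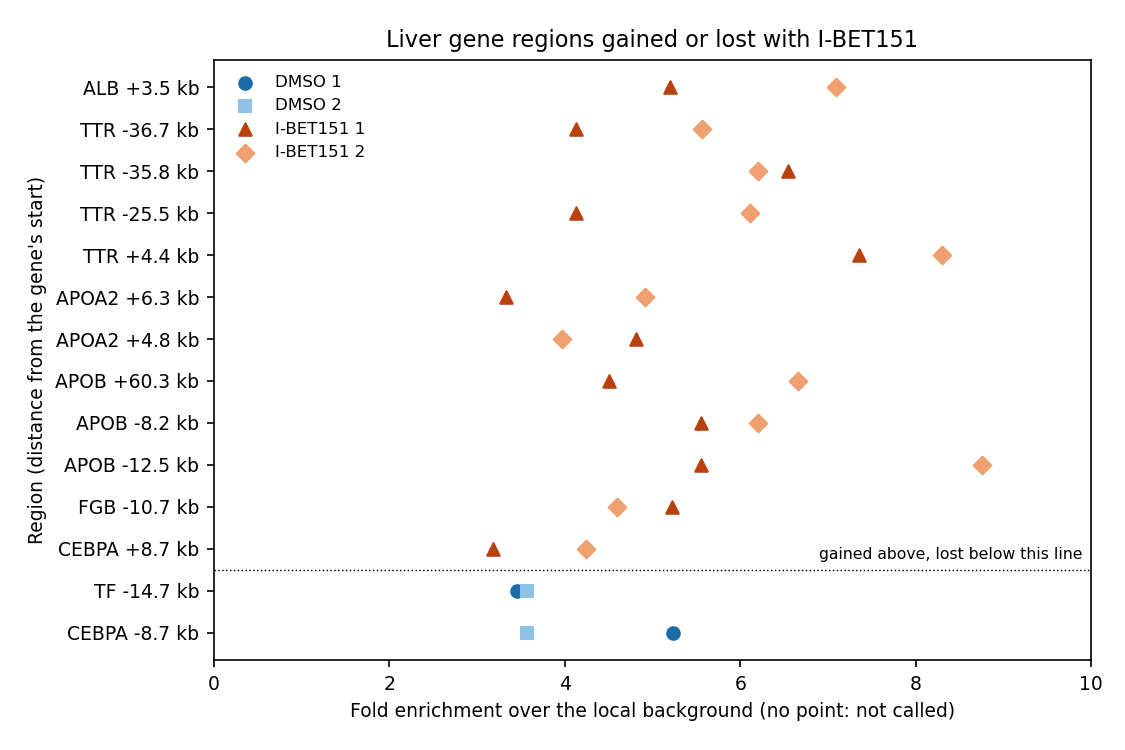
Fold enrichment over the local background of the 12 gained and 2 lost liver gene regions; each point is 1 library, and a library without a point did not call the region. The gained regions run from 3.18 to 8.75, TTR +4.4 kb and APOB −12.5 kb being the highest in I-BET151 2, and the lost regions from 3.46 to 5.23.

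Of the apolipoproteins, APOA1, the main protein of high-density lipoprotein, had 10 regions and none that was gained or lost. Its scores were 8.98 and 7.42 with DMSO and 14.4 and 27.0 with I-BET151, without overlap. The region at its start (summit at −230 bp) had a fold enrichment of 3.57, 3.22, 6.59 and 7.31 in the 4 libraries in the order above. Its percentile was 11.1 and 9.41 with DMSO and 28.7 and 19.1 with I-BET151, both higher, but the difference did not pass the test (limma, adjusted p = 0.385). The region at +10.6 kb overlapped between groups, at 19.0 and 40.4 against 51.1 and 24.8. The start of the neighbour APOC3, at +7.8 kb, was called in I-BET151 2 alone, with a fold enrichment of 4.02.

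APOA2, a second protein of high-density lipoprotein, lies among short genes, and 7 of its 9 regions fell inside or at the start of neighbouring genes such as FCER1G, TOMM40L and NR1I3. Its scores were 37.7 and 20.3 with DMSO and 46.0 and 48.1 with I-BET151. Both gained regions, at +4.8 and +6.3 kb, were inside FCER1G and weak, with a fold enrichment of 4.81 and 3.97 at the first and 3.33 and 4.92 at the second. The region at the APOA2 start (−712 bp) stood at percentiles of 43.2 and 38.7 with DMSO and 31.6 and 11.1 with I-BET151. The start of TOMM40L, a mitochondrial import protein, at −2.3 kb had 10.9 and 4.65 against 32.0 and 37.7. Thus both I-BET151 percentiles were lower at APOA2 and higher at TOMM40L, but neither difference passed the test (limma, adjusted p = 0.345 and 0.105).

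APOB, the structural protein of very-low-density and low-density lipoprotein, had 11 regions with 3 gained, none of them at its start. The region at −12.5 kb had a fold enrichment of 5.56 and 8.75 in the I-BET151 libraries, that at −8.2 kb 5.56 and 6.20, and that at +60.3 kb, past the gene's end, 4.50 and 6.66. The locus scored 15.7 and 7.31 with DMSO and 22.9 and 30.3 with I-BET151, without overlap. The region at the start, with its summit in intron 2 at +915 bp, had the most reads of the locus in every library, with 55, 52, 42 and 85. It ranked lower with I-BET151, at 55.3 and 32.7 against 69.9 and 72.4, and did not pass the test (limma, adjusted p = 0.266).

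FGB, which encodes the beta chain of fibrinogen, had the highest scores of the 10 genes in every library, 74.3 and 52.5 with DMSO and 62.2 and 78.8 with I-BET151, but its own start was not called. Of its 5 regions, 3 were called in all 4 lists. The one at −12.5 kb lies at the start of PLRG1, a splicing factor, and stayed near the top at percentiles of 96.6, 93.4, 97.3 and 96.2. The one at +27.8 kb lies at the start of FGA, the alpha chain, and stood at 88.6 and 78.4 with DMSO and 72.7 and 90.9 with I-BET151. The FGB −2.7 kb region spans 1827 bp, of which only the summit sequence is given above. It had a fold enrichment of 7.65, 5.91, 8.17 and 10.6 in the 4 libraries. Its percentiles were 86.9 and 75.2 with DMSO and 47.9 and 56.4 with I-BET151. Both I-BET151 percentiles were lower (mean difference −28.8), but the difference did not pass the test over all regions (limma, adjusted p = 0.187). The gained region at −10.7 kb had a fold enrichment of 5.22 and 4.60.

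SERPINA1, which encodes the protease inhibitor alpha-1 antitrypsin, scored 54.3 and 26.6 with DMSO and 25.2 and 50.2 with I-BET151, with overlap, and had no gained or lost region among its 5. Its 2 regions called in all 4 lists lay on opposite sides. At the start (−244 bp) the percentiles were 46.4 and 45.6 with DMSO and 8.55 and 28.3 with I-BET151, with only 18 reads in I-BET151 1. At −7.6 kb they were 39.8 and 30.6 against 59.2 and 63.9. Neither passed the test (limma, adjusted p = 0.19 and 0.279).

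CEBPA, the regulator among these genes, scored 24.9 and 17.5 with DMSO and 18.8 and 26.6 with I-BET151, with overlap. The region at its start (−138 bp) had a fold enrichment of 3.33 and 3.51 with DMSO and 8.27 and 6.57 with I-BET151. Its percentile was 6.82 and 16.7 against 49.2 and 12.6, so that I-BET151 1 alone stood apart. The lost region at −8.7 kb had a fold enrichment of 5.23 on 24 reads in DMSO 1 and 3.57 on 16 reads in DMSO 2, and the gained region at +8.7 kb was weak, with 3.18 and 4.24. The upstream region at −14.2 kb stood at 81.0 and 58.8 with DMSO and 18.6 and 57.4 with I-BET151, where I-BET151 1 had 10 reads (limma, adjusted p = 0.212).

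Over the 17 regions called in all 4 lists, none was called higher and none lower by limma, against 3.41% and 1.96% of all 25627 such regions. At an unadjusted p under 0.05 there were 2 higher (the starts of SRPRB and TOMM40L, both neighbours) and 2 lower (FGB −2.7 kb and the SERPINA1 start). Of all 25627 regions, 3324 were higher and 3048 lower at that threshold. Both I-BET151 percentiles lay above both DMSO percentiles at 5 regions, against 27.1% of all, and below them at another 5, against 28.1%. Reads at the summit relative to the reads of the library were higher with I-BET151, with a median log2 ratio over the 17 regions of 1.63 between the replicate 1 libraries and 2.29 between the replicate 2 libraries. The medians over all 25627 regions were 1.57 and 2.25, so on this scale, too, the liver gene regions lay close to the genome.

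**Figure D4:**
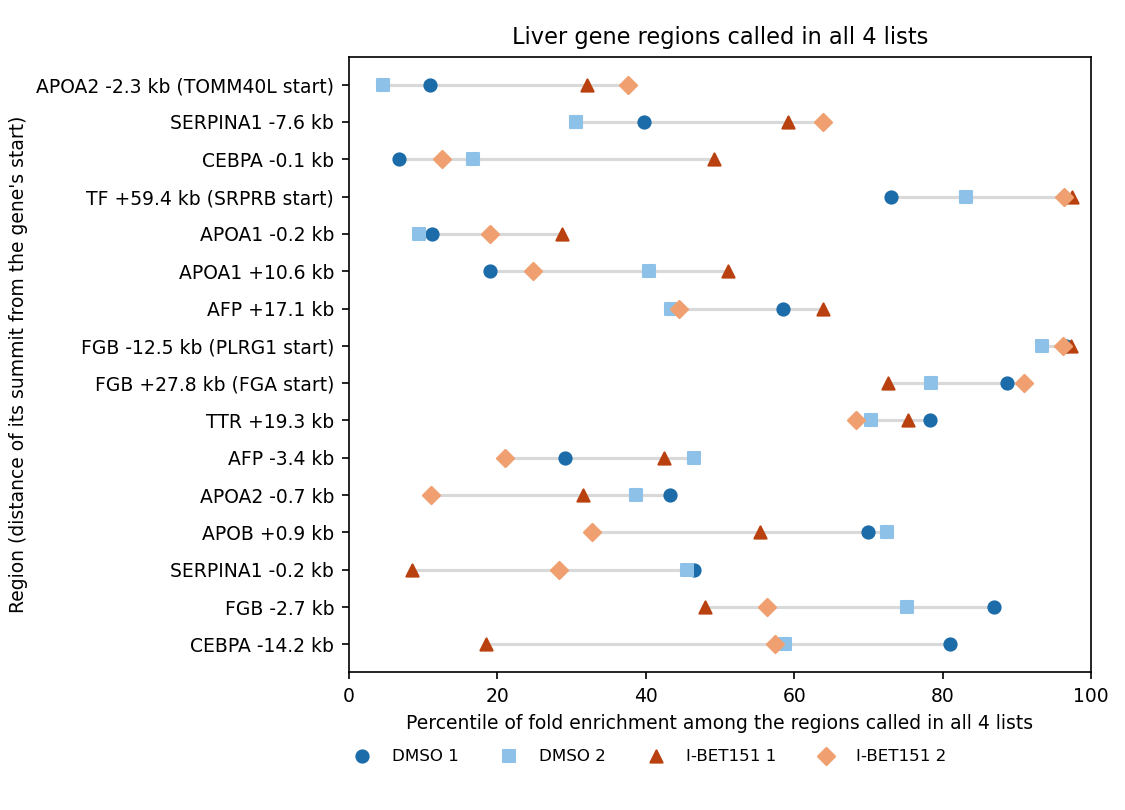
Percentile of fold enrichment of liver gene regions called in all 4 lists (all but 1 of the 17), among the 25627 such regions of the genome (0 lowest, 100 highest); each point is 1 library, and rows are ordered by the difference between the group means. The starts of TOMM40L and SRPRB have both I-BET151 points above both DMSO points, whereas FGB −2.7 kb and the SERPINA1 start have both below. Of the 17 regions, 5 are of the first kind and 5 of the second, against 27.1% and 28.1% of all such regions.

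In sequence, the letters of C/EBP were found in the windows of 13 of the 75 regions (17.3%) against 9.79% of all 164301 regions, and those of GATA in 15 of 75 against 14.2%. HNF1 letters were in 3 (4.00% against 1.95%), those of FOXA, TGTTTAC, in 4 (5.33% against 4.57%), those of HNF4A, CAAAGTCCA, in 1 (1.33% against 0.990%), those of the ONECUT family (TATTGAT) in 1 (1.33% against 3.47%) and the core of CTCF, AGGGGGCGC, in 1 (1.33% against 0.574%). A base could count for more than one motif. Of the 12 gained windows, 2 held C/EBP and 4 GATA letters, against 10.6% and 17.4% of all gained windows. The median GC content was 48.8% over the liver gene windows and 47.8% over all windows. Within each kind of region it was lower at the liver genes than over all regions. It was 42.8% against 45.3% for gained regions and 50.7% against 55.2% for those called in all 4 lists. For the 2 lost regions it was 46.0% against 54.2%. RefSeq promoter sequences (GRCh38.p14, 250 bases before to 50 after a start) matched ALB, AFP, TF, APOA2, FGB, SERPINA1 and CEBPA with 10 entries, of which 5 held C/EBP letters, against 10.5% of 35116 promoters. These were the entries of ALB, AFP and FGB and 1 of 2 entries of TF, the 4 genes whose start was not called in any list. The FGB entries (chr4:154562730-154563029 and chr4:154562761-154563060) overlap, so their shared stretch is counted more than once. No entry of APOA2, SERPINA1 or CEBPA, whose starts were called in all 4 lists, held these letters, and APOA1, APOB and TTR were not searched.

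A further 44 genes of the liver gave like shares of gained and lost regions but differed at the starts. Of their 254 regions, 44 (17.3%) were gained, 7 (2.76%) lost and 68 called in all 4 lists, of which limma called 2 higher and 2 lower. A start region was called in all 4 lists at 15 of the 44 genes, against 53.5% of all genes. At GC, PROC and HPX the start was called in both I-BET151 lists and neither DMSO list, and no gene had the reverse. The share of all genes with this pattern was not counted. The largest positive differences in locus score were at ASGR1, a subunit of the asialoglycoprotein receptor, GC, the vitamin D carrier, and ARG1, the arginase of the urea cycle. ASGR1 was at 0 in both DMSO libraries and at 30.1 and 50.0 with I-BET151. GC was likewise at 0 with DMSO and at 24.0 and 47.3 with I-BET151, and ARG1 stood at 18.5 and 11.4 against 35.2 and 51.4. The largest negative differences were at HP, which encodes haptoglobin and had 46.1 and 12.3 with DMSO and 0 in both I-BET151 lists, ASGR2, with 30.7 and 8.61 against 4.25 and 13.1, and the nuclear receptor NR1I2, with 40.0 and 16.9 against 19.6 and 35.2, of which the last 2 overlapped between groups. ASGR1 and HP had 2 regions each, GC 5, ARG1 and ASGR2 7 each and NR1I2 8, and each missing call counts as 0. These scores were not tested singly. In all, 39 of 42 genes with a region scored higher with I-BET151, beside 82.9% of all genes, and 23 of the 42 did so without overlap between groups, beside 51.1%. Unlike the region counts, these scores kept regions shared with the 10 genes, as in the windows of APOA4, APOC3, NR1I3 and FGA. They are therefore not independent of the scores of the 10 genes.

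Set beside other lineages of the foregut, 20 of 91 regions (22.0%) around 10 pancreatic progenitor genes and 5 of 40 (12.5%) around 10 acinar genes were gained. Lost regions were 2 of 91 and 7 of 40 (17.5%), of which 5 lay at the acinar gene CLPS, against 2 of 75 at the liver genes. Of 16 regions around 5 pluripotency genes, 1 (6.25%) was gained. Mean locus scores in DMSO 1, DMSO 2, I-BET151 1 and I-BET151 2 were 18.9, 10.9, 23.6 and 32.0 at the pancreatic progenitor genes. They were 35.6, 25.4, 47.2 and 58.9 at the pluripotency genes and 31.0, 19.4, 32.4 and 40.0 over all genes. The progenitor genes thus scored below both, and below the liver genes, in every library. Differences between these lists were not tested.

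**Figure D5:**
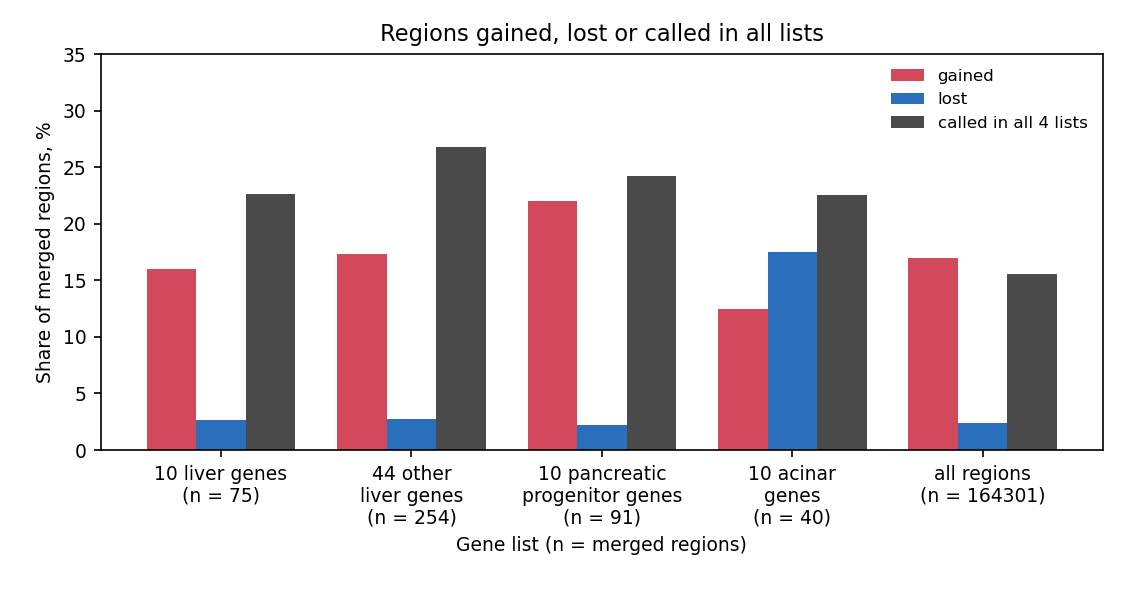
Share of merged regions in percent that were gained with I-BET151, lost, or called in all 4 lists, for the regions around the 10 liver genes, the 44 other liver genes, the 10 pancreatic progenitor genes and the 10 acinar genes, and for all regions; n is the number of regions, and regions of the 10 liver genes are left out of the other lists. The liver genes have 16.0% gained and 2.67% lost, beside 17.0% and 2.37% of all regions.

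The 20 kb limit cut through loci with regions on both sides. Inside it was a region 19.1 kb from APOA1 that was called in I-BET151 2 alone at a fold enrichment of 2.81. Just outside, 20.8 kb from SERPINA1, were a region called in the DMSO lists alone (3.97 and 3.40) and a region called in all 4 lists (4.46, 4.02, 6.50 and 5.95).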

How the data were processed

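Clean reads were aligned by the authors to hg38 with Bowtie2 (2.2.5), filtered, freed of duplicate and mitochondrial reads, and used to call peaks with MACS2 (2.1.2) in each library without a control. The deposited lists give each peak's fold enrichment (a ratio to the local background), −log10 p-value and −log10 q-value, all set by the authors. The methods state a p-value threshold of 1e-05 and an extension of 200 bp, while the deposited lists held peaks down to a −log10 q-value of 1.30 to 1.33 and p-values of 0.00113, and the peaks had a minimum length of 200 bp in DMSO 1 and I-BET151 1, 233 bp in DMSO 2 and 256 bp in I-BET151 2.

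Peaks of the autosomes, X and Y were merged at 1 bp. Depth was computed from the lists' background with a genome size of 2.7e+09 and each list's shortest peak as the read extension. The stated extension of 200 bp would put both replicate 2 libraries at a higher depth. Intervals for single counts were not drawn. Percentiles, scores, motif counts (201-base windows) and exact permutation tests used Python 3.11.15, numpy 2.4.6 and pandas 2.3.3. Ranks of fold enrichment in regions called in all lists were turned into normal scores and fitted with limma 3.58.1 in R 4.3.3 (4 libraries, group only, Benjamini-Hochberg adjustment over all 25627 regions, threshold 0.05). The steps were tested on simulated data.

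The genes, gene lists and tests were chosen with earlier results of these data known. Regions were named by rule: those at each start, the strongest of each gene, every gained or lost region, and of the other liver genes the 3 largest positive and negative differences in score. Regions outside this rule were chosen after their values were seen. Same-numbered libraries did not deviate together (r = −0.14 over the 25627 regions), so the numbers were not taken as pairs. Other assays of the study were not used here. One neighbouring gene near APOA2 and the values at its start are not reported here, although its region is in the counts.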

Additional observations from a re-analysis of the deposited data

How the results depend on the processing

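The count of gained regions, 12 as reported, was 4 at −log10 p of at least 10 (8.70% of regions, against 23.3% of all). It was 1 with equal numbers of peaks per list (2.70% against 9.19%). Within 5 kb it was 7 (16.3% against 17.0%) and within 50 kb 19 (15.2% against 17.0%). With 1 library left out it was 12 to 29. The largest counts were 29 without I-BET151 1 (43.3% against 43.7%) and 21 without I-BET151 2 (34.4% against 35.8%). The count of lost regions, 2 as reported, was 0 at −log10 p of at least 10 (against 0.269% of all regions) and 0 within 5 kb (against 2.37%). It was 1 when peaks had to cover 50% of the region (1.33% against 2.18%) and 4 within 50 kb (3.20% against 2.37%). With 1 library left out it was 2 to 9. It was 9 without DMSO 2 (12.0% against 20.9%) and 5 without I-BET151 2 (8.20% against 5.82%). Within replicate pair 1 there were 20 gained and 15 lost regions, against 46196 and 44051 of all regions. Within pair 2 there were 36 and 2, against 79854 and 6306. In limma, 2 of 11 regions were higher at −log10 p of at least 10 (the CEBPA start and the SRPRB start), against 6.36% of all regions. With the pileup scaled to library size 17 of 17 were higher, a scale on which 96.0% of all regions were higher. Within 50 kb, 1 of 26 was lower (near TTR), against 1.96% of all regions. Fits with 1 library left out leave a single library in 1 group, so only differences in normal scores are given. They are for regions chosen after their values were seen. Without I-BET151 1 the difference was −1.79 at SERPINA1 +3.5 kb. Without I-BET151 2 it was −1.42 at CEBPA −14.2 kb and −1.76 at chr4:154560753-154561226 before FGB. The latter is part of the longer merged FGB −2.7 kb region but lies beside its summit. In the fits without an I-BET151 library the spread comes from the DMSO libraries, and the lone I-BET151 library is assumed to vary like them. The mean score difference of 9.95 turned to −5.29 with equal numbers of peaks; leaving out 1 library gave 3.60 to 17.8. With the replicate number as a block it was −2.18 in pair 1 and 22.1 in pair 2, and the limma fit with the replicate block gave 0 higher and 0 lower. With crossed pairs, chosen after seeing the data, limma gave 0 and 0 of 17, against 1985 and 1567 of all regions. The causes were not tested. With as few as 5 reads to a peak, the depth of the lists limits what a missing call can show.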
